A study of Mus musculus with 12 samples.

Results

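The amino acid transporters described here are 10 genes of the plasma membrane solute carrier families, Slc7a1, Slc7a2, Slc7a5, Slc7a6, Slc3a2, Slc38a2, Slc38a3, Slc38a4, Slc1a4 and Slc1a5, out of 56205 genes in the count table. The rule that lists them uses their names and no measured value, although earlier results of these data were known when the list was drawn up. All 10 were found in the table by symbol and identifier. Whole liver was profiled by poly(A) RNA-Seq in 12 ob/ob mice (strain B6.Cg-Lep ob/J), 1 library per mouse. Every animal of both groups carried the ob mutation and so lacked leptin, and every animal ate standard chow. The 6 mice of the OBOB_FLO group (FLO) received chow alone, and the 6 mice of the OBOB_Fibrotic group (fibrotic) also received DL-ethionine, the ethyl analogue of methionine. The series text gives ethionine as 0.165% in the drinking water for 2 weeks, and another label gives 0.15% by injection. The study's methods give 0.15% in the drinking water for 1 week. Dose, route and duration are therefore uncertain. Mice were 8 to 10 weeks old when treatment began, and only males were stated to have been used. The label FLO is not explained in the sources used here. The name fibrotic is taken from the group label and is not a measure of fibrosis in these livers.

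Amino acids cross the hepatocyte membrane through carriers that share substrates but differ in how they are driven. The sodium-coupled neutral carriers Slc38a2, Slc38a3 and Slc38a4 concentrate glutamine, alanine and similar amino acids inside the cell, whereas Slc1a4 and Slc1a5 exchange small neutral amino acids across the membrane. Slc7a1 and Slc7a2 carry arginine and lysine. Slc7a5 and Slc7a6 are light chains that reach the surface bound to the heavy chain Slc3a2 (also called CD98 or 4F2hc), and Slc7a5 brings in large neutral amino acids such as leucine and methionine. Several of these genes are known targets of ATF4, the transcription factor made when amino acids run short.

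Library totals ran from 17815568 to 24814263 counts. The library labelled FLO replicate 3 held 3773 counts of Xist, against 0 to 4 in the other libraries, and 4 counts of Ddx3y, against 556 to 977, which goes against the stated male sex. It was kept in its labelled group, and without it 5 of the 10 transporters were still called higher and 3 lower. Marker genes of hepatocytes were abundant in every library, with a summed level of 65456 to 108690 CPM (counts relative to the TMM-adjusted size of the library) in fibrotic and 87676 to 105052 CPM in FLO livers. The samples were whole liver, so no value below is a measurement of hepatocytes alone, and a change in the share of a cell type cannot be told apart from a change in RNA per cell.

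In the mouse genome (GRCm38, GENCODE M21), the members lie on 7 chromosomes. Slc38a2 (chr15:96687392-96699730) and Slc38a4 (chr15:96994820-97055956) are neighbours on the minus strand, with 295089 bases between them, and the related carrier Slc38a1 lies 44478 bases to the other side of Slc38a2. Slc7a2 (chr8:40862396-40922308), Slc7a6 (chr8:106168857-106198706) and Slc7a5 (chr8:121881150-121907694) share chromosome 8 without being adjacent. The others are Slc3a2 (chr19:8706882-8723369), Slc38a3 (chr9:107650634-107669530), Slc7a1 (chr5:148327410-148399904), Slc1a4 (chr11:20302180-20332713) and Slc1a5 (chr7:16781340-16798274). Slc7a2 overlaps the lincRNA Gm26584 and Slc7a5 overlaps Gm20388, each on the opposite strand. The strand setting of the counting is not given in the sources used here, so reads within those overlaps cannot be assigned with certainty.

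RefSeq promoter windows (GRCm38.p6, from 250 bases before to 50 after a transcription start) were present for 6 of the 10 genes, in 10 windows. No entry was present for Slc7a2, Slc7a5, Slc38a3 or Slc1a5. For 4 genes whose transcripts moved differently, the stretch from 100 bases before to 10 bases after the start is printed so that their start regions can be compared. Slc1a4 and Slc3a2 are shown as genes that rose, Slc38a4 as the gene that fell furthest, and Slc38a2 as its neighbour that was not called. Sequences are printed 5′ to 3′ on the gene's own strand, and capitals mark matches on either strand to TGATGNAA (the core of an amino acid response element), CCAAT or TATAA.
Slc1a4, chr11:20332704-20332813, minus strand: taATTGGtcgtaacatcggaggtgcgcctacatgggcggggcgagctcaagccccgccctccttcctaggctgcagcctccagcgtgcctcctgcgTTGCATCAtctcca
Slc3a2, chr19:8713888-8713997, minus strand: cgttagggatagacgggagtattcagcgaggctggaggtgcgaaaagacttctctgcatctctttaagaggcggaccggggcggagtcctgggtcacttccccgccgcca
Slc38a4, chr15:97055947-97056056, minus strand: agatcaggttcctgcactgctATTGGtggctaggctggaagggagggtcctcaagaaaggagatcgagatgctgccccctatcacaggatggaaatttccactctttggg
Slc38a2, chr15:96699719-96699828, minus strand: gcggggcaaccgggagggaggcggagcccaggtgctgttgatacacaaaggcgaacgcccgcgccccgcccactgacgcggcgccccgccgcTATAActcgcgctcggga

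The Slc1a4 window held TTGCATCA, the reverse strand of TGATGNAA, from position -4 to 4 around the start. The other 5 genes with windows held no match to these letters, and 3.97% of 32851 mouse promoter windows did. CCAAT was present in 37.4% of all windows. It occurred in the windows of Slc1a4, Slc38a4 and Slc7a1. TATAA was present in 24.9% of all windows. It occurred in windows of Slc38a2, Slc38a4 and Slc7a1. In the printed start of Slc38a2 it lay at -8 to -4, while the Slc38a4 and Slc7a1 matches lay at starts that are not printed. The windows of Slc7a6 and Slc3a2 held none of the 3 motifs. The Slc3a2 window is set at position 8713897, inside the annotated gene, which on the minus strand begins at 8723369. Its letters therefore do not cover that upstream end of the gene. These matches are descriptions of letters and not of bound sites.

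To ask how transcripts of these carriers differed after ethionine, fibrotic livers were tested against FLO livers with all 13416 genes left by the low-count filter in the same fit. Of the 10 transporters, 5 were higher in fibrotic livers (Slc3a2, Slc7a5, Slc7a6, Slc1a4 and Slc1a5), 3 were lower (Slc38a4, Slc7a2 and Slc38a3), and Slc38a2 and Slc7a1 were not called. A gene was called by the edgeR quasi-likelihood test when its Benjamini-Hochberg adjusted p was at most 0.01 and its log2 fold change exceeded 0.5 in either direction. By that rule 29.9% of all tested genes were called, 15.9% higher and 14% lower. CPM ranges of the groups did not overlap for 6 of the 10 transporters, against 30.4% of all tested genes. Slc7a6 passed the filter only through its level in fibrotic livers, since 4 FLO libraries were under the filter's level. The median log2 fold change was 0.92 over the 10 transporters, 0.47 over the 9 without Slc7a6 and 0.03 over all tested genes.

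**Figure D1:**
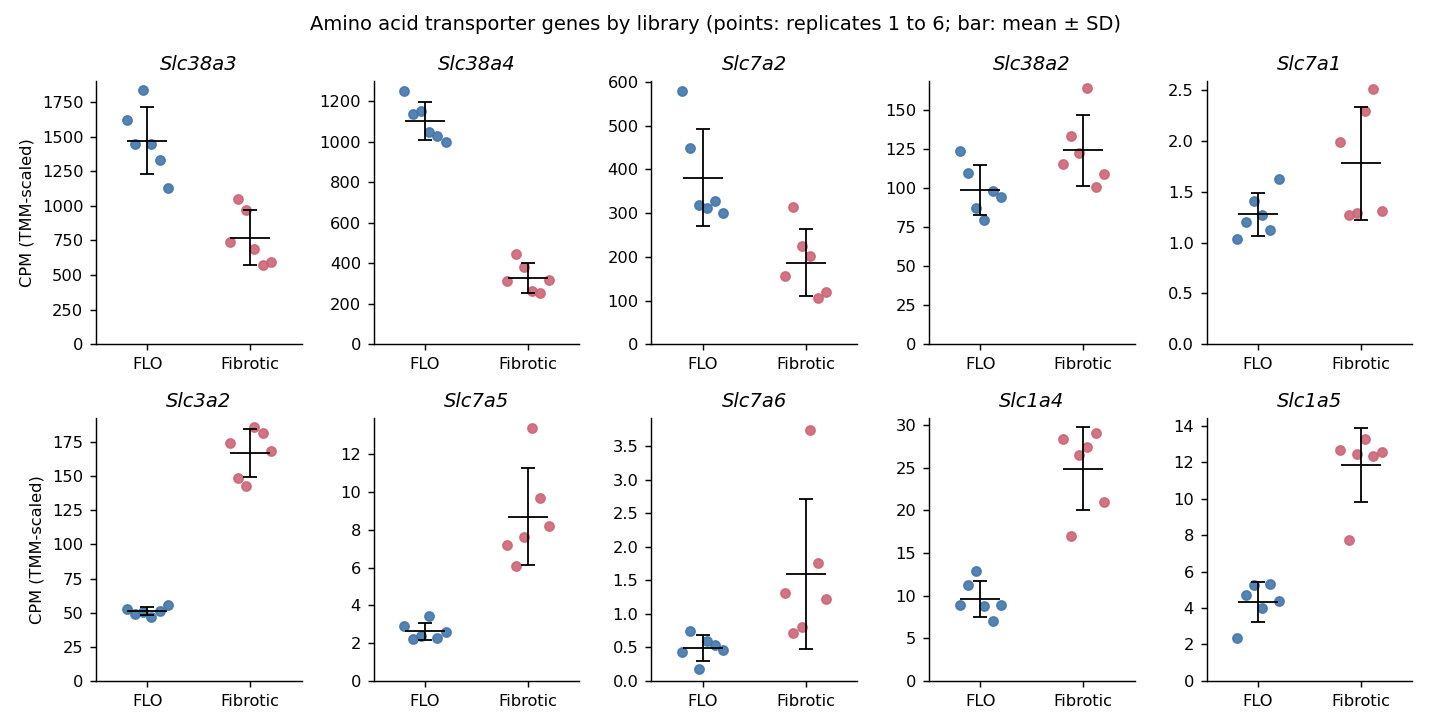
TMM-scaled CPM (vertical axes, each starting at 0) of the 10 transporter genes in the 6 FLO and the 6 fibrotic libraries, 1 point per library, with bars for the mean ± SD. Slc38a3 and Slc38a4 were lower in every fibrotic library than in any FLO library, Slc3a2, Slc7a5, Slc1a4 and Slc1a5 were higher in every fibrotic library, and the other 4 genes overlapped.

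The sodium-coupled neutral carriers Slc38a3 and Slc38a4 fell. Slc38a4 (SNAT4, ENSMUSG00000022464), a carrier of neutral amino acids with highest known levels in liver, ranged from 998 to 1251 CPM in FLO livers with a median of 1094, and from 251 to 447 CPM in fibrotic livers with a median of 315. The highest fibrotic library, replicate 2, held less than the lowest FLO library, replicate 6. Means were 1103 ± 95.2 CPM in FLO and 329 ± 73.7 CPM in fibrotic livers (SD, n = 6 each), a log2 fold change of -1.74 (SE 0.14, 95% interval -2.03 to -1.45, edgeR adjusted p = 1.12e-07). Transcript of Slc38a4 was thus 3.35-fold lower.

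Slc38a3 (SNAT3, ENSMUSG00000010064), which moves glutamine and histidine in either direction across the hepatocyte membrane, ranged from 1129 to 1837 CPM in FLO livers with a median of 1446. In fibrotic livers it ranged from 575 to 1049 CPM with a median of 711. The groups did not overlap, but the gap was narrow, between fibrotic replicate 2 at 1049 CPM and FLO replicate 6 at 1129 CPM. The log2 fold change was -0.93 (SE 0.16, 95% interval -1.28 to -0.59, adjusted p = 0.000205). The FLO libraries were highest in replicate 3, the library whose sex genes go against its label, and without it the log2 fold change was -0.86 (adjusted p = 0.00058).

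Slc38a2 (SNAT2, ENSMUSG00000022462), the carrier of the same family known to be raised by amino acid shortage, was not called. It ranged from 79.4 to 124 CPM in FLO livers with a median of 95.7, and from 101 to 164 CPM in fibrotic livers with a median of 119. Every fibrotic library lay above the FLO median, but only 2 lay above the highest FLO library, replicate 1. Its log2 fold change was 0.33 (SE 0.13, 95% interval 0.06 to 0.60, adjusted p = 0.0387), which misses both thresholds.

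The low-affinity cationic carrier Slc7a2 (CAT2, ENSMUSG00000031596), the arginine and lysine carrier typical of liver, ranged from 299.5 to 578 CPM in FLO livers with a median of 323. In fibrotic livers it ranged from 105 to 313 CPM with a median of 179. The values of fibrotic replicates 1, 3, 4, 5 and 6, lay below every FLO library, 5 of 6 in all, while fibrotic replicate 2 at 313 CPM overlapped FLO replicates 4 and 6. Slc7a2 was lower by a log2 fold change of -1.03 (SE 0.26, 95% interval -1.58 to -0.48, adjusted p = 0.00422). The call was lost when fibrotic replicate 1 (adjusted p = 0.0119), fibrotic replicate 4 (0.0116), FLO replicate 1 (0.0103) or FLO replicate 2 (0.0103) was left out, and with no low-count filter (0.0198).

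Its relative Slc7a1 (CAT1, ENSMUSG00000041313), the high-affinity cationic carrier of most other tissues, was scarce. It held 19 to 33 counts per FLO library, or 1.04 to 1.63 CPM with a median of 1.24. Fibrotic libraries held 24 to 50 counts, or 1.27 to 2.52 CPM with a median of 1.65. Fibrotic replicates 1, 4 and 5 lay above every FLO library and the remaining 3 within the FLO range. The log2 fold change of 0.47 (SE 0.23, 95% interval -0.02 to 0.96, adjusted p = 0.0979) did not pass. At this depth the interval took in both no change and a rise as large as its upper limit.

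The heavy chain Slc3a2 (ENSMUSG00000010095), which several light chains need to reach the membrane, was the most even of the members within each group. It ranged from 46.8 to 55.5 CPM in FLO livers with a median of 51.0, and from 143 to 186 CPM in fibrotic livers with a median of 171. Every fibrotic library was above every FLO library by a wide margin. The coefficient of variation was 5.82% in FLO and 10.6% in fibrotic livers, the smallest of the 10 genes in both groups. This gave a log2 fold change of 1.71 (SE 0.08, 95% interval 1.53 to 1.89, adjusted p = 1.44e-09).

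Slc7a5 (LAT1, ENSMUSG00000040010), the light chain for leucine, methionine and other large neutral amino acids, was low in FLO livers at 38 to 70 counts, or 2.24 to 3.43 CPM with a median of 2.49. In fibrotic livers it reached 120 to 286 counts, or 6.11 to 13.4 CPM with a median of 7.90. Groups did not overlap, and fibrotic replicate 4 was highest. The log2 fold change was 1.72 (SE 0.19, 95% interval 1.32 to 2.12, adjusted p = 2.91e-06).

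Slc7a6 (y+LAT2, ENSMUSG00000031904), a light chain that exchanges arginine for neutral amino acids, was close to the limit of detection. It held 4 to 13 counts per FLO library, or 0.171 to 0.746 CPM with a median of 0.495. Fibrotic libraries held 14 to 80 counts, or 0.713 to 3.74 CPM with a median of 1.26. The lowest fibrotic library, replicate 2, fell within the FLO range, and fibrotic replicate 4 stood well above the rest. The log2 fold change was 1.72 (SE 0.43, 95% interval 0.81 to 2.63, adjusted p = 0.00344), and it was 1.27 without fibrotic replicate 4 (adjusted p = 0.00694).

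The neutral exchangers Slc1a4 and Slc1a5 both rose. Slc1a4 (ASCT1, ENSMUSG00000020142), which exchanges alanine, serine and cysteine, ranged from 6.99 to 12.9 CPM in FLO livers with a median of 8.90. In fibrotic livers it ranged from 17.0 to 29.1 CPM with a median of 26.9. No fibrotic library reached down to the FLO range, although replicates 2 and 6 lay below the other fibrotic libraries. Slc1a4 had a log2 fold change of 1.37 (SE 0.16, 95% interval 1.03 to 1.70, adjusted p = 4.31e-06).

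Slc1a5 (ASCT2, ENSMUSG00000001918), which also accepts glutamine, ranged from 2.35 to 5.33 CPM in FLO livers with a median of 4.54, on 43 to 123 counts. In fibrotic livers it ranged from 7.74 to 13.2 CPM with a median of 12.5, on 152 to 283 counts. Replicate 2 was the lowest fibrotic library, although above every FLO library, and the other 5 fibrotic libraries lay close together from 12.3 CPM upward. For Slc1a5 the log2 fold change was 1.44 (SE 0.18, 95% interval 1.06 to 1.83, adjusted p = 9.7e-06).

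**Figure D2:**
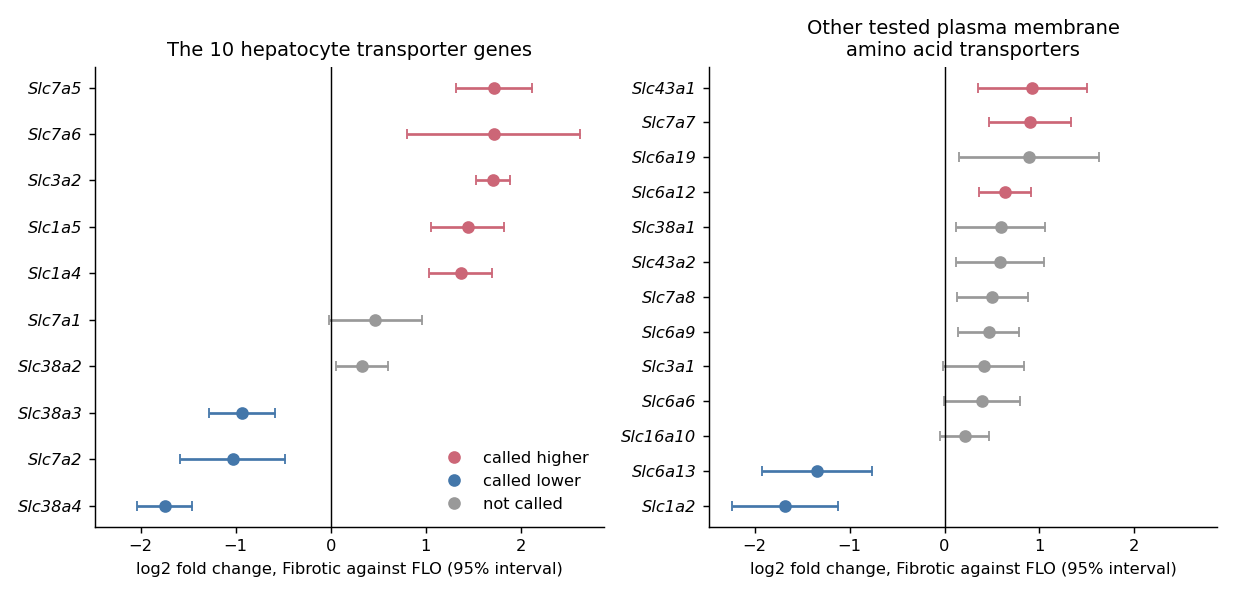
Log2 fold change of fibrotic against FLO livers (horizontal axis) with its 95% interval, for the 10 transporters on the left and the 13 other tested plasma membrane amino acid transporters on the right, coloured by call. On the left the 5 genes called higher lie from 1.37 to 1.72 and the 3 called lower from -1.74 to -0.93, with Slc7a1 and Slc38a2 between them.

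Related carriers were next compared within each library, as log2 ratios of counts, because such a ratio does not depend on scaling between libraries. In all, 7 pairs were tested by two-sided exact permutation, with p adjusted over the 7 ratios, and 4 ratios differed between the groups. Slc38a2 rose relative to Slc38a4, from a mean log2 ratio of -3.50 ± 0.18 in FLO to -1.40 ± 0.38 in fibrotic livers (SD, n = 6 each). That is 0.0886 Slc38a2 counts per Slc38a4 count in FLO and 0.379 in fibrotic livers (difference 2.10, exact p = 0.00216, adjusted 0.00505), with no overlap between the groups. An exact p of 0.00216 is the smallest that 6 against 6 can give.

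The ratio of Slc38a2 to Slc38a3 differed by 1.28 (exact p = 0.00216, adjusted 0.00505), also without overlap. Slc38a3 and Slc38a4 fell to unequal degrees. Their ratio went from 1.32 Slc38a3 counts per Slc38a4 count in FLO to 2.32 in fibrotic livers (log2 difference 0.81, exact p = 0.00216, adjusted 0.00505). The ratios among Slc38a2, Slc38a3 and Slc38a4 are not independent results, since each follows from the others. The 2 cationic carriers also shifted against each other, with Slc7a1 over Slc7a2 higher by 1.51 on the log2 scale (exact p = 0.0108, adjusted 0.0189), though the groups overlapped.

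For the carriers that rose, no difference in ratio was found. Slc7a5 over its heavy chain Slc3a2 had a mean log2 ratio of -4.28 ± 0.27 in FLO and -4.30 ± 0.30 in fibrotic livers (SD, n = 6 each; difference -0.02, exact p = 0.896, adjusted 0.896). This corresponds to 0.0516 and 0.0509 Slc7a5 counts per Slc3a2 count. Slc7a6 over Slc3a2 differed by -0.17 (exact p = 0.684, adjusted 0.798), with an SD of 0.72 in both groups. Slc1a4 over Slc1a5 differed by -0.10 (exact p = 0.660, adjusted 0.798), and the SD was 0.49 in FLO and 0.17 in fibrotic livers. A p above the threshold does not show that members of a pair changed equally.

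**Figure D3:**
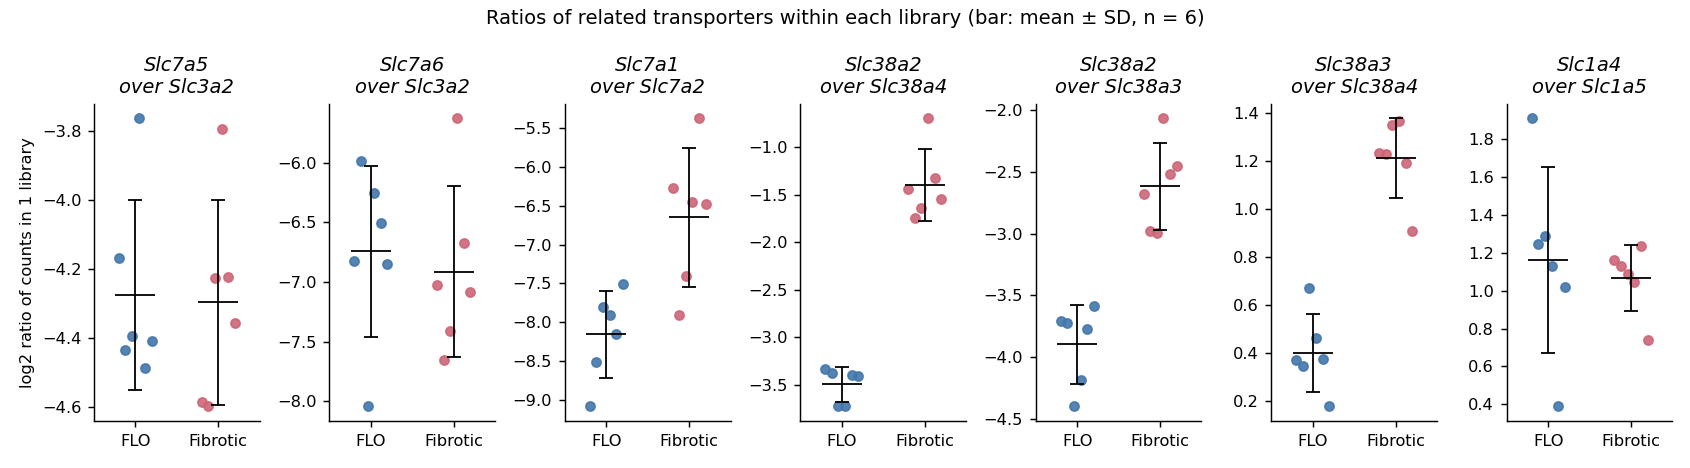
Log2 ratio of the counts of related transporters within each library (vertical axes, not starting at 0), for 6 FLO and 6 fibrotic libraries, with bars for the mean ± SD. The 3 ratios among the Slc38 carriers, which are not independent, separate the groups completely. Slc7a1 over Slc7a2 is higher in 5 of 6 fibrotic libraries than in any FLO library, and the other 3 ratios overlap widely.

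To set the levels of different genes side by side, mean CPM was divided by the length of the longest annotated transcript in kilobases (CPM per kb). In FLO livers Slc38a3 was highest at 466 ± 76.9 CPM per kb (SD, n = 6), followed by Slc38a4 at 281 ± 24.2 and Slc7a2 at 48.1 ± 14.1. Slc3a2 at 18.1 and Slc38a2 at 16.1 CPM per kb came next and overlapped in their ranges over libraries. Slc1a4 at 2.45, Slc1a5 at 1.55 and Slc7a5 at 0.749 CPM per kb followed, each overlapping its neighbour. Slc7a1 at 0.178 and Slc7a6 at 0.130 CPM per kb were lowest and overlapped.

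In fibrotic livers Slc3a2 stood above Slc7a2 and Slc7a6 above Slc7a1, and the order of these levels was otherwise as in FLO livers. Slc38a3 at 244 ± 62.9 CPM per kb was still highest, and Slc38a4 at 83.7 ± 18.7 overlapped Slc3a2 at 59.4 ± 6.28 (SD, n = 6). Slc7a2 at 23.6 CPM per kb overlapped Slc38a2 at 20.3. Slc1a4 at 6.34, Slc1a5 at 4.21 and Slc7a5 at 2.48 CPM per kb again overlapped as neighbours, above Slc7a6 at 0.425 and Slc7a1 at 0.248, which overlapped in both groups. With the median transcript length in place of the longest, Slc3a2 at 206 CPM per kb stood above Slc38a4 at 168 in fibrotic livers, and Slc1a4 fell below Slc1a5 and Slc7a5 in both groups, so these places in the order rest on the transcript chosen.

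**Figure D4:**
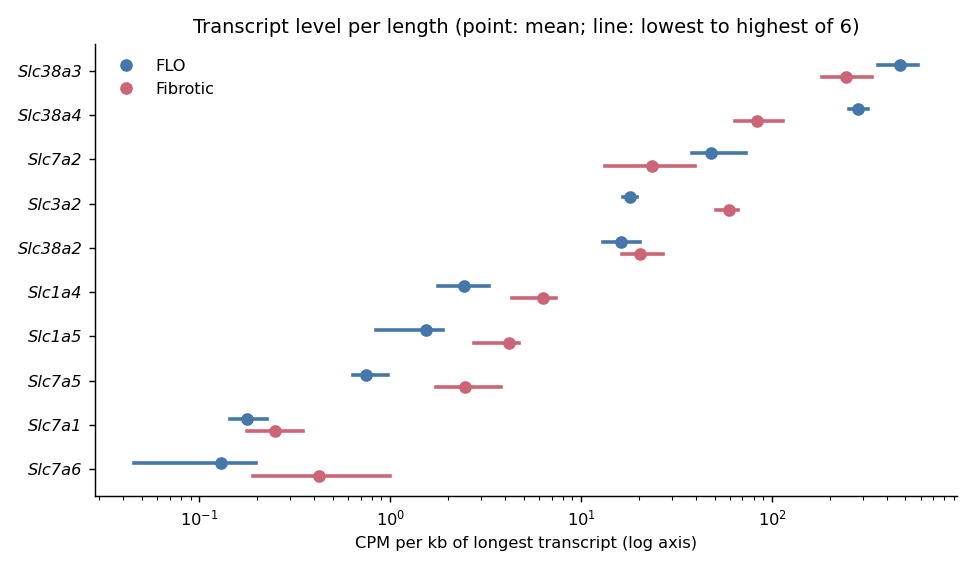
Mean level of each transporter in CPM per kb of its longest transcript (horizontal log axis), with lines from the lowest to the highest of 6 libraries in each group. Slc38a3 is highest in both groups at 466 and 244 CPM per kb, and Slc3a2 moves from below the Slc7a2 range in FLO livers to above it in fibrotic livers.

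Summed over the 10 genes, transporter counts were lower in fibrotic livers. The sum ranged from 2593 to 3639 CPM in FLO livers with a median of 3082, and from 1270.02 to 2124 CPM in fibrotic livers with a median of 1554, so the groups did not overlap. Slc38a3, Slc38a4 and Slc7a2 together held 93.6 to 95.4% of these counts in FLO livers and 73.4 to 85.2% in fibrotic livers. The share of Slc3a2 was 1.44 to 2.14% in FLO and 7.01 to 14.3% in fibrotic livers. These are shares of counts, in which a long transcript weighs more than a short one.

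The fibrotic livers were not uniform. Replicates 2 and 3 held the highest levels of Slc38a3, Slc38a4 and Slc7a2 among the 6 fibrotic libraries, and the lowest levels of Slc3a2 and Slc7a6. Replicate 4 was highest for Slc3a2, Slc7a5, Slc7a6, Slc1a5 and Slc38a2. Across all 12 libraries, after the group means of log2 CPM had been removed, Slc38a3 and Slc38a4 varied together (Pearson r = 0.85). Slc38a4 varied against Slc7a1 (r = -0.82) and Slc3a2 (r = -0.77), and Slc7a5 varied with Slc7a6 (r = 0.70). Slc38a2 went with Slc7a2 (r = 0.76) and hardly with Slc38a4 (r = 0.24). These correlations describe 12 libraries whose genes share depth and scaling.

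Among the 13406 tested genes outside the 10, those whose variation between libraries was most like that of Slc38a4 were Nars2 (r = 0.95), which encodes mitochondrial asparaginyl-tRNA synthetase, F13b (r = 0.94), a coagulation factor subunit, and Ahcy (r = 0.94), the enzyme that hydrolyses S-adenosylhomocysteine. In all, 14 genes had r above 0.9 with Slc38a4. For Slc7a5, the called transporter with the largest log2 fold change, the most similar genes were Wdfy4 (r = 0.94), Stam2 (r = 0.93) and Sar1a (r = 0.93). The last is a GTPase of vesicle export from the endoplasmic reticulum. Between the groups, log2 fold changes were -0.44 for Nars2, -0.80 for F13b and -1.15 for Ahcy. They were 0.73 for Wdfy4, 0.17 for Stam2 and 0.07 for Sar1a.

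Of 24 other plasma membrane amino acid transporters, 13 were tested, 3 were higher, 2 were lower and 8 were not called, with a median log2 fold change of 0.50. The called genes were 38.5% of those tested in this list, against 29.9% of all tested genes, and the share called lower was 15.4%, near the 14% of all tested genes. The glutamate carrier Slc1a2 (GLT-1), typical of pericentral hepatocytes, fell from 141 ± 22.9 CPM in FLO to 44.1 ± 19.9 CPM in fibrotic livers (SD, n = 6 each; log2 fold change -1.68, SE 0.26, adjusted p = 0.000115). Its groups did not overlap. Slc6a13 (GAT2), a carrier of GABA and taurine, also fell (log2 fold change -1.34, adjusted p = 0.000872). Slc43a1 (LAT3), a large neutral carrier that needs no heavy chain, rose by 0.92 on the log2 scale (adjusted p = 0.00977). Slc7a7 (y+LAT1), another light chain of Slc3a2, rose by 0.90 (adjusted p = 0.00168), and the betaine carrier Slc6a12 rose by 0.64 (adjusted p = 0.00069).

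The cystine carrier Slc7a11 (xCT), also a light chain of Slc3a2, did not pass the low-count filter and is named after its values were seen. FLO libraries held 2 to 8 counts of it. Fibrotic replicates 1 to 6 held 33, 2, 0, 381, 21 and 13 counts. Fibrotic replicate 4, the library highest for Slc7a5 and Slc7a6, thus held most of the Slc7a11 counts of its group, while replicates 2 and 3 were at or below the FLO range.

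Of 14 amino acid carriers of mitochondria and lysosomes, 12 were tested, 3 were higher and 1 was lower, with a median log2 fold change of 0.15. The share called, 33.3%, was near the 29.9% of all tested genes. The aspartate-glutamate carriers of the mitochondrial membrane went in opposite directions. Slc25a12 (aralar) rose from 19.3 to 39.7 CPM (log2 fold change 1.04, SE 0.11, adjusted p = 2.28e-06), and Slc25a13 (citrin), the liver form, fell from 249.3 to 119 CPM (log2 fold change -1.07, adjusted p = 5.01e-07). Slc25a44, a carrier of branched-chain amino acids, rose by 0.96 (adjusted p = 1.72e-05), and Slc66a1, a lysosomal exporter of cationic amino acids, rose by 0.70 (adjusted p = 6.58e-05).

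Genes of the amino acid response were examined because several of the 10 transporters belong to the same known programme. Of 18 listed, 16 were tested, 6 were higher and 0 lower by edgeR, with a median log2 fold change of 0.54. The share called higher was 37.5%, against 15.9% of all tested genes. By DESeq2 0 were lower as well, and at an unadjusted edgeR p under 0.05 without the fold threshold 2 were lower (Shmt2 and Gpt2, named after their values were seen). Asparagine synthetase, Asns, ranged from 0.383 to 0.711 CPM in FLO and from 1.40 to 13.5 CPM in fibrotic livers (log2 fold change 3.52, SE 0.53, adjusted p = 8.51e-05). Its FLO libraries held 7 to 15 counts, and it passed the low-count filter only through its level in fibrotic livers. The 6 genes called higher include it. Ddit4, an inhibitor of mTOR signalling, rose by 1.68 (adjusted p = 3.95e-05), and Aldh18a1, of proline synthesis, rose by 1.47 (adjusted p = 0.000313). Cebpb, Sesn2 and Eif4ebp1 were the other genes called higher. Sesn2 is also among the amino acid sensing genes below, and its call was lost without FLO replicate 3. In that setting 6 genes of the response list were still called higher. Atf4 itself had an adjusted p of 0.00255 with a log2 fold change of 0.49, just under the fold threshold. Ddit3 (-0.39), Chac1 (-0.34) and Trib3 (0.05), known targets of the same response, were not called.

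Of 16 genes that sense amino acids upstream of mTORC1, 15 were tested, 1 was higher and 1 lower, with a median log2 fold change of 0.24. The share called was 13.3%, against 29.9% of all tested genes. The leucine sensor Sesn2 rose by 0.67 (adjusted p = 0.00535), a call lost without FLO replicate 3, and the GATOR1 subunit Nprl3 fell by 0.53 (adjusted p = 0.000641). The other 13 were not called.

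Markers of some other liver cells differed between the groups, and others overlapped. Macrophage and Kupffer cell markers summed to 183 to 357 CPM in fibrotic and 140 to 168 CPM in FLO livers, and 5 of 7 were called higher. That share was 71.4%, against 15.9% of all tested genes. Cholangiocyte markers summed to 80.6 to 273 CPM in fibrotic and 47.0 to 87.9 CPM in FLO livers, with 3 of 5 called higher (60%). Spp1 made up most of that sum (mean 122 CPM in fibrotic and 60.5 CPM in FLO livers), and Krt7 and Krt19 were not called. Endothelial markers summed to 99.99 to 136 CPM against 140 to 163 CPM, with 1 of 5 called lower (20%, near the 14% of all tested genes). Proliferation markers summed to 22.1 to 33.9 CPM against 36.5 to 50.1 CPM, with 2 of 5 called lower (40%). Of these 2, Ccnb1 held 1 to 13 counts per fibrotic and 23 to 54 per FLO library, so it passed the low-count filter only through FLO livers. Pcna, with most of the sum (mean 23.1 CPM in fibrotic and 30.6 CPM in FLO livers), was not called. Stellate cell markers overlapped at 107 to 192 CPM and 106 to 158 CPM, with 1 of 6 called higher (0 without FLO replicate 3). That share of 16.7% was near the 15.9% of all tested genes. The collagen gene Col1a1 of this list was not called (log2 fold change -0.22, edgeR adjusted p = 0.611), at a mean of 23.3 CPM in fibrotic and 27.1 CPM in FLO livers. Erythroid markers summed to 314 to 419 CPM against 377 to 634 CPM, with 1 of 3 called lower (33.3%, and 0 without FLO replicate 3). Lymphocyte markers, at 1.36 to 5.01 CPM against 1.37 to 4.50 CPM, and neutrophil markers, at 0.808 to 3.51 CPM against 0.437 to 3.50 CPM, were near the limit of detection, and 0 of the 3 that could be tested were called by edgeR, with 0 at an unadjusted p under 0.05 and 0 called by DESeq2.

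No listed marker was at 0 in all libraries. The part of these other cells in the changes of the 10 transporters was not tested. Among 7 hepatocyte markers, Cps1 was called higher (log2 fold change 0.73) and Apoa1 lower (-1.68), and 5 were not called, among them Hnf4a at -0.08 and Alb at -0.31. The shares called, 14.3% higher and 14.3% lower, were near the 15.9% and 14% of all tested genes.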

How the data were processed

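Per the labels, RNA came from whole livers of 12 mice, and groups and replicate numbers were read from the sample titles. The authors deposited 1 table of raw counts per Ensembl gene, without normalization. The submitters' processing notes name bcl2fastq, STAR 2.7.3a and the build mm10, while the annotation, the counting step for these mice and its strand setting are not given in the sources used here. Counts of each library include counting error, which is part of the SD between libraries. Symbols matched 51745 of 56205 identifiers, and those without a symbol held 0.0587% of counts.

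Counts were scaled with TMM, filtered with filterByExpr and tested by quasi-likelihood in edgeR 4.0.16 (robust, under R 4.3.3) with Benjamini-Hochberg adjustment over 13416 genes, at an adjusted p of 0.01 and an absolute log2 fold change above 0.5, as in the study's methods. CPM uses TMM-scaled library sizes, and log2 CPM a prior count of 2. Ratios used counts plus 0.5 and a two-sided exact permutation test, called at 0.05 adjusted over 7 ratios. Libraries of a group differed by more than sampling noise in all 30 pairs (smallest chi-square per degree of freedom 10.7), so each counted as 1 replicate. The labels give no batch, so no values within batches could be made. Lengths and coordinates are from GENCODE M21.

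Named are the 10 transporters, up to 3 called genes at each end of each other pathway list, the 3 genes most similar to the extreme called transporters, and marker lists by sums. Members and lists were chosen with earlier results of these data known. Alternatives were RLE, upper quartile and TMM computed after removing the 50 most abundant genes, no filter, a filter of 10 counts in each library, limma-voom (limma 3.58.1), DESeq2 1.42.0, a replicate block, an adjusted p of 0.05 with no fold threshold, a pseudocount of 5, the median transcript length and leaving out each library. The fit was tested on simulated counts in which only a small part of the genes was changed. Its behaviour under change as broad as in these data was not tested.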

Additional observations from a re-analysis of the deposited data

Results flagged for a closer look

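In 52 sets of 6 libraries (each transporter, each ratio and each marker list in each group), 4 had a highest or lowest library whose gap to the next, as a share of the group's range, was above Dixon's 95% critical value for 6 samples. Chance flags about 1 in 20 such sets, or 2.6 of 52. Fibrotic replicate 4 was highest for Slc7a6, at 3.74 CPM against 1.76 CPM in the next library (gap share 0.654). Fibrotic replicate 2 was lowest for Slc1a5, at 7.74 CPM against 12.3 CPM (gap share 0.835), and without it the log2 fold change of Slc1a5 was 1.54. FLO replicate 6 was highest for the summed neutrophil markers, at 3.50 CPM against 1.48 CPM (gap share 0.66). FLO replicate 1 was lowest for the summed stellate cell markers, at 106 CPM against 139 CPM (gap share 0.628).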

How the results depend on the processing

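Over 57 results and 433 alternative values, 403 kept their direction and side of the threshold or, for counts and levels, stayed close to the reported value. The members called higher numbered 5, except for 4 where 10 counts were required in every sample, which left out Slc7a6, and 6 with the looser threshold given next. Those called lower numbered 3, or 2 where Slc7a2 lost its call (with no low-count filter, adjusted p = 0.0198, and in 4 of the fits that leave out a library). An adjusted p of 0.05 with no fold threshold added Slc38a2 to those higher (0.0387) and raised the genes called from 4012 to 6994. Leaving out each library gave 3798 to 4093 genes called and log2 fold changes of -1.85 to -1.67 for Slc38a4, -1.04 to -0.86 for Slc38a3, -1.24 to -0.87 for Slc7a2, 1.69 to 1.76 for Slc3a2 and 1.27 to 1.87 for Slc7a6. DESeq2 called 4654 genes, 3956 of them shared. Other scalings moved the median of all genes by less than 0.1.

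The difference in the ratio Slc7a5 over Slc3a2 ran from -0.12 to 0.0816 when each library was left out, and that of Slc1a4 over Slc1a5 from -0.25 to 0.0529, so neither kept its direction. Same-numbered libraries did not vary together (correlations -0.16 to 0.10, with 0 of 12 libraries closest to their own number). No pairing by number was thus seen, although a weak one could go unseen in such correlations. With a replicate block 3780 genes were called, 3694 of them shared, with 5 transporters higher and 3 lower. In a sign-flip test with a replicate block the ratio differences 1.51, 2.10, 1.28 and 0.81 each had an adjusted p of 0.0547, from the smallest p that 6 pairs allow.

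With the median transcript length, FLO levels in CPM per kb became 2048 for Slc38a3, 562 for Slc38a4, 103 for Slc7a2, 62.8 for Slc3a2, 5.92 for Slc1a5, 4.26 for Slc7a5, 0.649 for Slc7a1 and 0.638 for Slc7a6. The median log2 fold change of the members was 0.47 without Slc7a6, an alternative added after the data were seen. In 2 other settings added then, without FLO replicate 3 the sensing genes and stellate cell markers called higher and the erythroid markers called lower each went from 1 to 0, and by DESeq2 the sensing genes higher went to 2 and the proliferation markers lower from 2 to 4. The cause of these shifts was not tested. Depth limits Slc7a1 and Slc7a6, which held 4 to 80 counts per library.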
